A study of Mus musculus with 2 samples.

Results

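The angiotensin system was examined in endothelial cells of the normal mouse brain through 7 genes, *Ace*, *Agt*, *Agtr1a*, *Agtr2*, *Anpep*, *Enpep* and *Bdkrb2*. Every probe set annotated to 1 of these gene symbols was taken, which gave 9 of the 45101 probe sets of the array. *Ace* and *Bdkrb2* had 2 probe sets each and the other 5 genes had 1 each. The cells came from the brain vasculature of C57BL/6 mice without disease and carried CD31, an adhesion molecule of endothelium. They were sorted by flow cytometry into CD31+ Prom1+ and CD31+ Prom1- cells, Prom1 (CD133) being a membrane protein of cell protrusions. Each population was measured on 1 Affymetrix Mouse Genome array. Neither the age of these mice nor the number behind an array is stated in the labels or methods. With 1 array a population there was no replicate error, no p-value was made, and no difference below has a replicate check.

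Angiotensinogen, the product of *Agt*, is cut by renin to angiotensin I, from which angiotensin-converting enzyme (*Ace*), a peptidase of the luminal surface of endothelium, makes the vasoconstrictor angiotensin II. The same enzyme inactivates bradykinin, a vasodilator that acts on the B2 kinin receptor (*Bdkrb2*). Aminopeptidase A (*Enpep*) removes the first residue of angiotensin II, and aminopeptidase N (*Anpep*, CD13) the next one. In the brain, angiotensinogen is mostly a product of astrocytes, and both aminopeptidases are known from the pericytes that wrap capillaries.

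All values are signals in multiples of the median of the same array. The deposited values are log2 of this quantity, and having 1 array a population limits the precision. A signal of 1.67 times the median was used as a floor. This floor stands for 100 on the authors' scale with a target of 500 only by the average of the arrays' trimmed means, which differ. It was reached by 44.6% of probe sets on the array labelled Prom1+ and by 42.9% on the array labelled Prom1-. Lower signals were raised to it for ratios, so that a ratio resting on 1 such signal is only a bound, and no ratio is given for 2. *Prom1* itself had 159 times the median on the array labelled Prom1+, against 196 times on the array labelled Prom1-, by its 1 probe set, a level that does not separate the arrays as their labels do, so the arrays are named by label throughout. Among 19 endothelial markers on the array the median log2 ratio was 0.04, and all 19 were above the floor. Scaling to the same trimmed mean made that median -0.50, and scaling to the hybridization controls made it 1.07. The median over 17488 probe sets at the floor on each array was a 1.58-fold higher signal with the label Prom1+.

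Of these 7 genes, the 3 peptidases were above the floor and the substrate and the 3 receptors were not. 4 probe sets of *Ace*, *Enpep* and *Anpep* passed it, 3 of them on both arrays and that of *Anpep* on the array labelled Prom1-. The remaining 4 genes, with 5 probe sets, were under the floor on both arrays. *Ace* had higher signals on the array labelled Prom1+, and *Enpep* and *Anpep* had lower ones. The differences ran from 1.73-fold, for 1 probe set of *Ace*, to at least 2.20-fold, for *Anpep*. By the floored signals 0 of the 4 measured probe sets were at least 2-fold higher and 1, that of *Anpep*, was at least 2-fold lower, where 26.4% and 5.16% of all 21966 probe sets at the floor were higher and lower. The median log2 ratio of the 4 was -0.10, beside 0.60 over all 21966.

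**Figure D1:**
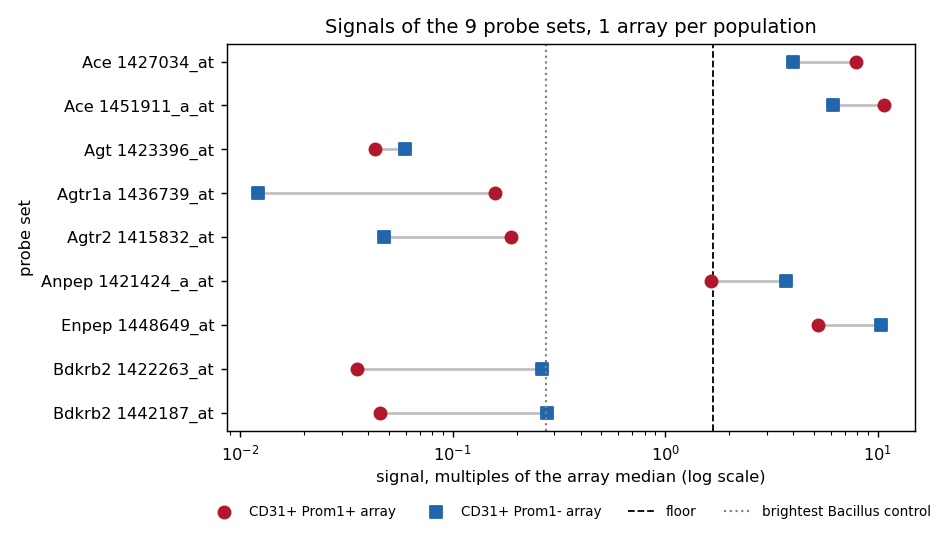
Signals of the 9 probe sets in multiples of the array median, on a log axis, with red circles for the CD31+ Prom1+ array and blue squares for the CD31+ Prom1- array. The dashed line is the floor of 1.67 and the dotted line the brightest of 27 Bacillus control probe sets on either array, 0.276. *Ace*, *Enpep* and, on the Prom1- array, *Anpep* lie to the right of the floor, while the other 5 probe sets lie near or below the controls.

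*Ace* was measured by 2 probe sets. Probe set 1427034_at had a signal of 7.94 times the median on the array labelled Prom1+, against 3.99 times on the array labelled Prom1-, and was 1.99-fold higher. Probe set 1451911_a_at had 10.6 times the median on the array labelled Prom1+, against 6.17 times on the array labelled Prom1-, and was 1.73-fold higher. Both probe sets were thus higher on the array labelled Prom1+ and under 2-fold, 1427034_at only just. Their log2 ratios, 0.99 and 0.79, lay close to those of probe sets of like signal. The 1000 probe sets nearest in mean signal had a median fold of 1.81 beside 1427034_at and 1.78 beside 1451911_a_at. The log2 ratio less that of these neighbors was 0.14 for 1427034_at and -0.04 for 1451911_a_at. Of 3621 probe sets with a mean log2 signal of 2 to 3, where 1427034_at lies, 40.3% were at least 2-fold higher.

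*Enpep*, by its probe set 1448649_at, had 5.22 times the median on the array labelled Prom1+, against 10.4 times on the array labelled Prom1-. It was 1.99-fold lower, with a log2 ratio of -0.99, against the general shift. Its 1000 neighbors in signal were 1.77-fold higher at the median, and the log2 ratio of *Enpep* less theirs was -1.82. In the same range of signal, 5.36% of probe sets were at least 2-fold lower.

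*Anpep*, by its probe set 1421424_a_at, had 1.64 times the median on the array labelled Prom1+, just under the floor, against 3.69 times on the array labelled Prom1-. It was at least 2.20-fold lower, and 2.26-fold lower with no floor. Probe sets nearest in signal had a median fold of 1.46, and the log2 ratio of *Anpep* less theirs was at most -1.69. With a higher floor of 200 on the target scale, the Prom1- signal lay just above it and the Prom1+ signal under it, and the log2 ratio was -0.14.

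**Figure D2:**
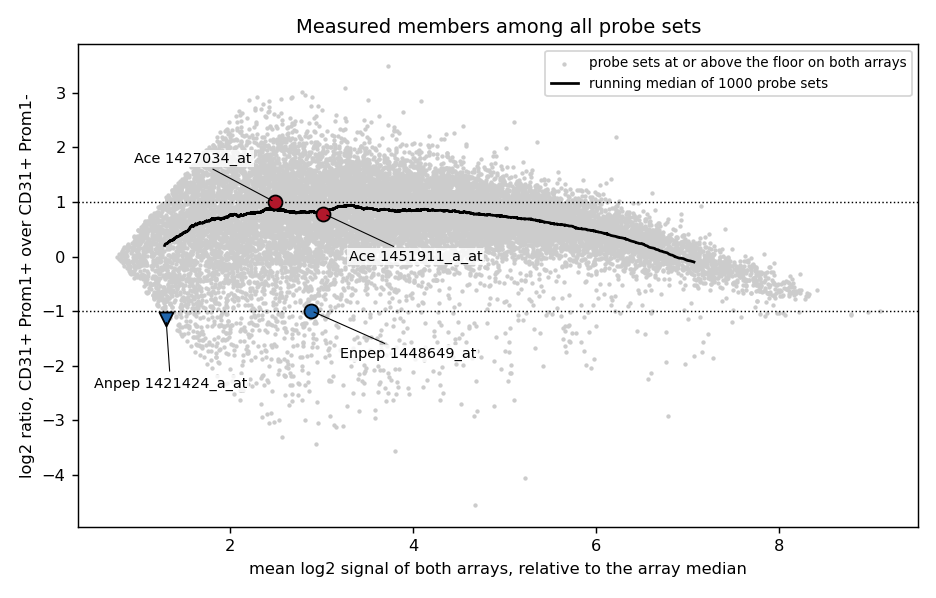
Log2 ratio of CD31+ Prom1+ over CD31+ Prom1- against the mean log2 signal of both arrays relative to the array median. Grey points are the 17488 probe sets at or above the floor on both arrays, the black line is their running median, dotted lines mark 2-fold, and the triangle marks a bound. Both probe sets of *Ace* (0.99 and 0.79) lie along the running median, while *Enpep* (-0.99) and *Anpep* (-1.14) lie far below it, by the values as deposited.

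The sign of 2 of these ratios depended on how the arrays were scaled. The log2 ratio of 1427034_at of *Ace* ran from 0.12 to 2.02 over the deposited scaling and 5 others. That of 1451911_a_at ran from -0.09 to 1.81, with the negative value after loess correction of the shift between the arrays. *Enpep* ran from -1.85 to 0.03, with the positive value when the hybridization controls were set equal, and *Anpep* from -1.44 to -0.15. The median log2 ratio over all genes at the floor was 0.66 as deposited, 0.04 after loess and 1.64 with the hybridization controls set equal, and the ranges above are not relative to it. The difference between *Ace* and *Enpep* holds under any constant scaling. The log2 ratio of *Ace* exceeded that of *Enpep* by 1.98 for 1427034_at and 1.78 for 1451911_a_at, and by 1.98 and 1.76 after loess. Against *Anpep*, the difference was at least 2.13 and at least 1.93 at the deposited scaling, and at least 1.41 and at least 1.19 after loess.

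**Figure D3:**
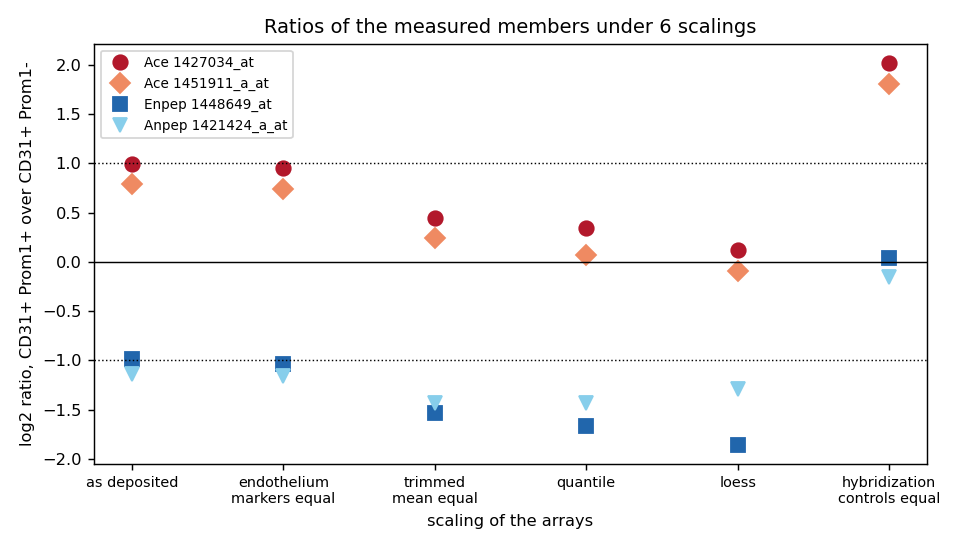
Log2 ratios of CD31+ Prom1+ over CD31+ Prom1- for the 4 measured probe sets under 6 scalings of the arrays, with dotted lines at 2-fold. Both *Ace* probe sets lie above *Enpep* and *Anpep* under each of the 6, while the sign of 1451911_a_at of *Ace* turns with loess (-0.09) and that of *Enpep* with the hybridization controls set equal (0.03).

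The 250 bases before the transcription start of the 3 measured genes are shown here. Any part of them in the ratios of these genes was not tested. The sequences come from a table of RefSeq promoters on the GRCm38.p6 build, in which 6 of the 7 genes were matched. Capitals mark the letters GGGCGG, known as the GC box, TATAAA, known as the TATA box, and CCAAT, the box of that name, searched on both strands.

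Ace, chr11:105967698-105967947, plus strand: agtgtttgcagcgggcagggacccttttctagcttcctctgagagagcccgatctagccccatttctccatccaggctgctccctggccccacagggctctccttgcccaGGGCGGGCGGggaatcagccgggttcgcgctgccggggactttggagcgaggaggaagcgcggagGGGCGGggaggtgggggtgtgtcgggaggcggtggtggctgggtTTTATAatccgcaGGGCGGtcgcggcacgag
Anpep, chr7:79848211-79848460, minus strand: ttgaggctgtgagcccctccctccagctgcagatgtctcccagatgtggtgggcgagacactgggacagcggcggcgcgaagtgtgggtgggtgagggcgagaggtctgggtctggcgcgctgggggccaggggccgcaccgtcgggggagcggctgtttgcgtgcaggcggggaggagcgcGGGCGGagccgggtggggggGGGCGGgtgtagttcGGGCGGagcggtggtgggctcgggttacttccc
Enpep, chr3:129332750-129332999, minus strand: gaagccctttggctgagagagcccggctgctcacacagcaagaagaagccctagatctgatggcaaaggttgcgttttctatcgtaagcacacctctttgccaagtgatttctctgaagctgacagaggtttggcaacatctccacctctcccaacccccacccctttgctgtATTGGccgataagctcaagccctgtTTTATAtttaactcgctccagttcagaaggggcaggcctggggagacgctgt

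The *Ace* window held 4 GC box matches, overlapping ones counted each, and 1 TATAAA match. That of *Anpep* held 3 GC box matches, and that of *Enpep* 1 TATAAA match and 1 CCAAT box with no GC box. Both TATAAA matches lie on the opposite strand and are printed as TTTATA, so neither reads TATAAA in the direction of transcription. Of 32851 promoter windows of the same length, 32.7% held a GC box, 12.4% the letters TATAAA and 33.8% a CCAAT box. The GC content was 67.2% for *Ace*, 72.8% for *Anpep* and 52.4% for *Enpep*, with a median of 52.4% over all windows. The table holds 2 starts for *Ace*, and the one printed lies at the 5′ end of the gene. The other, inside the gene, is in the place of the known start of the testis form of the enzyme. The array values do not tell which start was used.

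The substrate and the receptors of the system were at the level of controls. The 27 Bacillus control probe sets, designed against bacterial genes, reached at most 0.234 times the median on the array labelled Prom1+, against 0.276 times on the array labelled Prom1-. *Agt*, the precursor of all angiotensins, had 0.0432 times the median on the array labelled Prom1+, against 0.0597 times on the array labelled Prom1-. *Agtr1a*, the main type 1 angiotensin receptor of the mouse, which mediates constriction, had 0.158 times on the array labelled Prom1+, against 0.0122 times on the array labelled Prom1-. *Agtr2*, the type 2 receptor, had 0.189 times on the array labelled Prom1+, against 0.0473 times on the array labelled Prom1-. All 3 genes lay below the brightest control on each array.

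*Bdkrb2*, the B2 kinin receptor, had 0.0353 times the median on the array labelled Prom1+, against 0.263 times on the array labelled Prom1- by probe set 1422263_at. Probe set 1442187_at had 0.0453 times on the array labelled Prom1+, against 0.278 times on the array labelled Prom1-, the only one of the 5 dim probe sets above the brightest control of its array, and barely so. Signals this low have no order, and no fold is given. By these probe sets the signals did not reach the floor, which does not show that the transcripts were absent.

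Of 42 other genes, those of the angiotensin and kinin pathways and a list of other peptidases, 35 were analysed here, and 24 reached the floor. By the brightest probe set, 4 passed 2-fold upward on the array labelled Prom1+, 0 passed it downward and 20 lay between. Over all 10793 genes at the floor 28.2% were higher and 4.77% lower. The median log2 ratio of the 24 was 0.34, beside 0.66 over all genes at the floor. With both arrays scaled to the same trimmed mean, 1 gene was higher and 2 were lower, and after loess 0 were higher and 1 was lower.

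Among enzymes that form or cleave angiotensins, 8 of 12 genes reached the floor, with log2 ratios of 0.08 to 1.35. Prolyl endopeptidase (*Prep*), which cuts after proline, had 7.60 times the median on the array labelled Prom1+, against 2.98 times on the array labelled Prom1-, and was 2.55-fold higher. Its other probe set had a log2 ratio of 1.14. Prolylcarboxypeptidase (*Prcp*), which removes the last residue of angiotensin II, had 95.3 times on the array labelled Prom1+, against 68.5 times on the array labelled Prom1-, 1.39-fold higher. Its other probe sets disagreed, with log2 ratios of 0.72 and 1.45 for those above the floor on both arrays and -0.33 for one with its Prom1+ signal under the floor. Aminopeptidase B (*Rnpep*) was 1.88-fold higher, at 45.9 times on the array labelled Prom1+, against 24.4 times on the array labelled Prom1-, and the lysosomal protease *Ctsd* was 1.06-fold higher. Neprilysin (*Mme*) and the mast cell and neutrophil proteases *Cma1*, *Cpa3* and *Ctsg* were under the floor on both arrays.

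Among receptors and their partners, the other angiotensin receptors *Agtr1b* and *Mas1* were under the floor on both arrays, like *Agtr1a* and *Agtr2*. *Agtrap*, which binds the type 1 receptor and promotes its internalization, had 7.70 times the median on the array labelled Prom1+, against 2.24 times on the array labelled Prom1-, and was 3.44-fold higher, the largest ratio of the 24 genes at the deposited scaling. A second probe set of *Agtrap* was at least 4.63-fold higher, with 7.76 times on the array labelled Prom1+, against 0.698 times on the array labelled Prom1-. After loess the log2 ratio of *Agtrap* was 0.99. The renin receptor *Atp6ap2* was 1.35-fold higher, at 100.1 times on the array labelled Prom1+, against 74.3 times on the array labelled Prom1-. *Mtus1*, a partner of the type 2 receptor, was 1.11-fold higher, with log2 ratios of 0.36 and 0.90 by its other probe sets.

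Among kinin genes, 5 of 9 reached the floor. *Xpnpep1*, an aminopeptidase that can cleave bradykinin, had 49.7 times the median on the array labelled Prom1+, against 23.9 times on the array labelled Prom1-, and was 2.08-fold higher. The carboxypeptidases *Cpd* and *Cpm*, which can trim the end of kinins, were 1.04-fold and 1.13-fold higher by the brightest probe set. Other probe sets of *Cpd* above the floor on both arrays had log2 ratios of -0.10 to 1.42, and the other one of *Cpm* had -0.01. The brightest probe set of tissue kallikrein (*Klk1*), of a family of near-identical genes and so uncertain, had 2.18 times on the array labelled Prom1+, against 1.18 times, under the floor, on the array labelled Prom1-. Plasma kallikrein (*Klkb1*), named here after its value was seen, was the 1 kinin gene of the 5 with a lower signal, at 0.174 times, under the floor, on the array labelled Prom1+, against 3.02 times on the array labelled Prom1-, at least 1.80-fold lower. The kininogen gene *Kng1* and the B1 receptor *Bdkrb1* were under the floor on both arrays.

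Among other peptidases, not all of them of the cell surface, 8 of 9 reached the floor. *Erap1*, an aminopeptidase of the endoplasmic reticulum that trims antigenic peptides, had 12.3 times the median on the array labelled Prom1+, against 5.04 times on the array labelled Prom1-, and was 2.44-fold higher. Its other probe set had a log2 ratio of 0.15. The sheddase *Adam17* was 1.95-fold higher, at 70.6 times on the array labelled Prom1+, against 36.2 times on the array labelled Prom1-. The endothelin-converting enzyme *Ece1* had a log2 ratio of -0.03, with 0.80 and -0.59 by other probe sets, and the carboxypeptidase *Cpe* of 0.07. Fibroblast activation protein (*Fap*) had 2.25 times on the array labelled Prom1+, against 4.33 times on the array labelled Prom1-. It is named here after its value was seen. Its log2 ratio of -0.95 was the lowest of those of the 24 at the floor on both arrays. That of *Klkb1* is a bound and has no rank beside it.

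**Figure D4:**
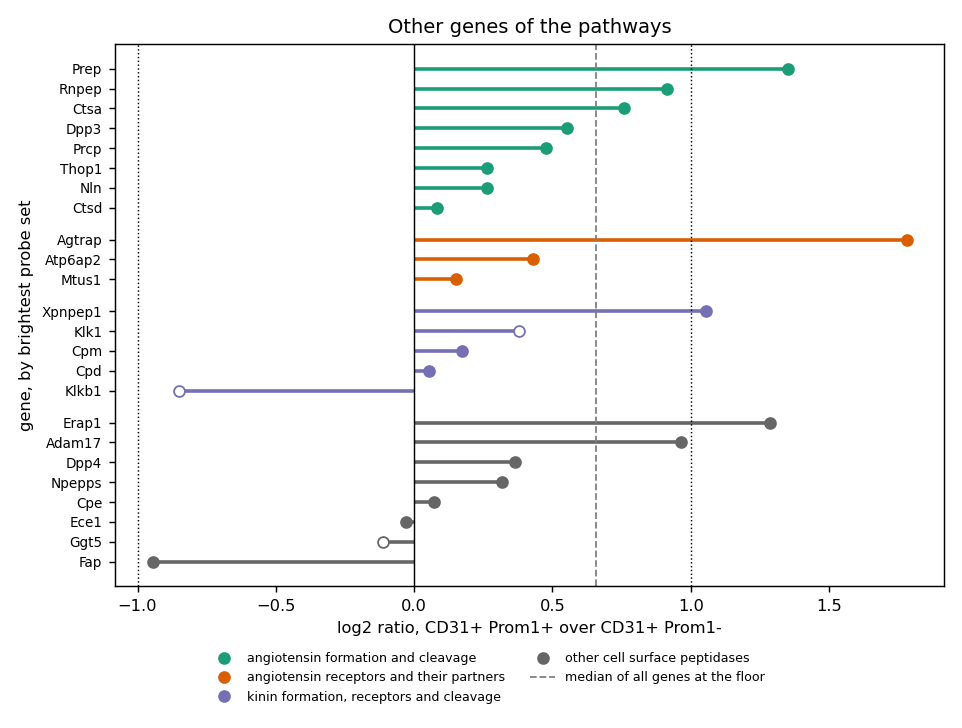
Log2 ratios of CD31+ Prom1+ over CD31+ Prom1- of the 24 other pathway genes at the floor, by brightest probe set and grouped by role. Open circles have 1 signal under the floor, dotted lines mark 2-fold and the dashed line is the median of all genes at the floor, 0.66. *Agtrap*, *Prep*, *Erap1* and *Xpnpep1* pass 2-fold at the deposited scaling, and none of them after loess.

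Transcripts of other cell types differed between the same arrays, several of them in the direction of *Enpep* and *Anpep*. Of 18 pericyte and smooth muscle genes, in which *Enpep* and *Anpep* were not included, all reached the floor and 16 were at least 2-fold lower on the array labelled Prom1+ at the deposited scaling. Their log2 ratios ran from -2.74 to -0.44 with a median of -1.80, and their summed signals were 503 times the median on the array labelled Prom1+, against 1582 times on the array labelled Prom1-. The smooth muscle actin *Acta2*, the myosin light chain *Myl9* and the pericyte gene *Rgs5* were the brightest, and they were 3.62-fold, 3.36-fold and 2.15-fold lower. At the deposited scaling the log2 ratio of *Enpep*, -0.99, fell just short of 2-fold, so it lay above those 16 genes by the threshold alone. After loess it was -1.85, above the list median of -2.31 but below *Acta2*, *Myl9* and *Rgs5*, at -1.68, -1.64 and -1.01. The ratio of *Anpep* is a bound and has no rank among the 18 genes. At the deposited scaling *Enpep* and *Anpep* were both below all 19 endothelial markers, whose lowest was -0.65.

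Microglial and macrophage genes were also lower, 10 of 13 by at least 2-fold with a median log2 ratio of -1.24, and summed signals of 144 times on the array labelled Prom1+, against 345 times on the array labelled Prom1-. Of 12 fibroblast and meningeal genes at the floor, 8 were at least 2-fold lower with a median of -1.15. The sums over the 13 genes of the list were 80.4 times on the array labelled Prom1+, against 431 times on the array labelled Prom1-. Of these sums *Ptgds* alone gave 40.3 times and 305 times, and without it they were 40.1 times and 126 times. *Lum* alone of these 13 was under the floor. With the hybridization controls set equal, the median log2 ratios of these 3 lists were still below 0, at -0.78, -0.21 and -0.56, but 5, 0 and 4 of their genes were at least 2-fold lower. The part of any of these cells in the values of *Enpep* and *Anpep* was not tested, and in such sorted pools fewer cells of a type and less RNA per cell cannot be told apart.

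*Ace* lay at the upper end of the endothelial markers. Its 2 log2 ratios were above those of 18 of the 19 and exceeded their median by 0.95 and 0.74, a difference that was 0.02 and -0.19 after loess, and they were above those of all 18 pericyte and smooth muscle genes at the deposited scaling. Choroid plexus and ependyma genes were given for *Ace*, which the choroid plexus also makes. Of 7, 4 reached the floor and 3 of them were at least 2-fold lower, among them transthyretin (*Ttr*), at 210 times on the array labelled Prom1+, against 426 times on the array labelled Prom1-. *Kl*, *Foxj1* and *Tmem212* were under the floor on both arrays.

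Of 7 neuronal genes, 3 reached the floor, each on the array labelled Prom1- alone. The sums over the 7 were 1.75 times on the array labelled Prom1+, against 20.8 times on the array labelled Prom1-. Without *Syt1*, the brightest, they were 1.73 times and 10.6 times. Of 6 oligodendrocyte genes, 5 reached the floor, 1 of them at least 2-fold higher and 2 at least 2-fold lower. The sums over the 6 were 217 times on the array labelled Prom1+, against 440 times on the array labelled Prom1-. Their median log2 ratio was -0.64, and 0.39 with the hybridization controls set equal. Their part in the values of the 7 genes was not tested.

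Astrocyte genes stand beside *Agt*. Of 12, 7 reached the floor, 1 of them at least 2-fold higher and 2 at least 2-fold lower, with a median log2 ratio of -0.28, of -0.92 after loess and, over the 8 then at the floor, of 0.59 with the hybridization controls set equal. At the deposited scaling 5 of the 7 were below 0. The lowest of those at the floor on both arrays was *S100b*, at -2.35. *Gja1* and, named here for its sign, *Fgfr3* were above 0. The summed signals were 126 times on the array labelled Prom1+, against 120 times on the array labelled Prom1-, of which the gap junction gene *Gja1* gave 84.5 times and 67.0 times. Without it the sums were 41.1 times on the array labelled Prom1+, against 53.1 times on the array labelled Prom1-. *Gfap*, *Aqp4*, *Aldh1l1*, *Mlc1* and *Ntsr2* were under the floor on both arrays, like *Agt*.

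**Figure D5:**
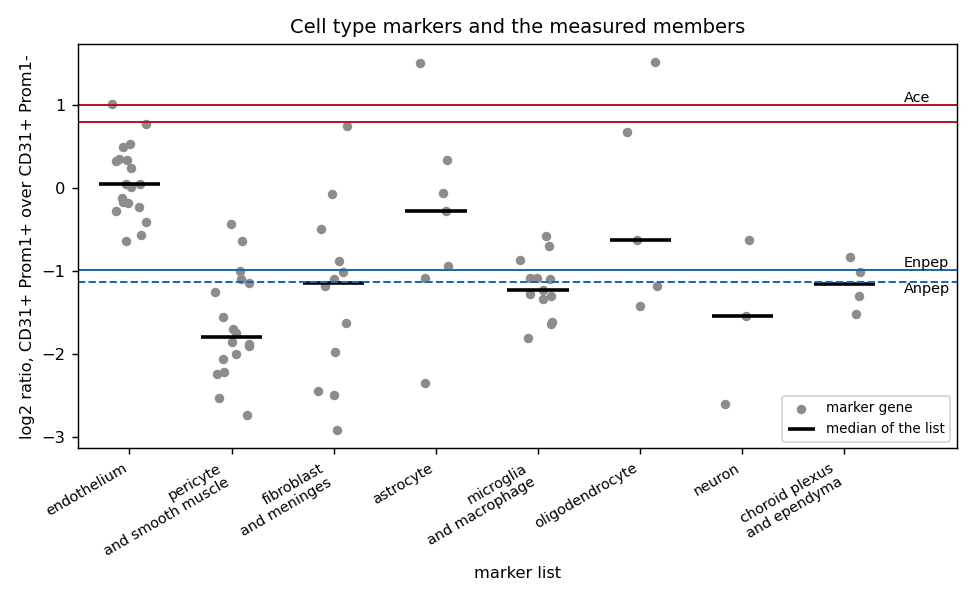
Log2 ratios of CD31+ Prom1+ over CD31+ Prom1- of marker genes at the floor, a grey point for each gene and a black bar at the median of each list. Red lines are both probe sets of *Ace*, and blue lines *Enpep* (solid) and *Anpep* (dashed, a bound). At the deposited scaling the blue lines lie below all 19 endothelial markers and the red lines above 18 of them.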

How the data were processed

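RNA of 2 sorted populations of brain endothelium was hybridized to 2 arrays, 1 each. The authors amplified the RNA, labeled it with biotin, scanned the arrays in the GeneChip Operating Software, scaled each to a target of 500 and normalized the data in GeneSpring. MAS5 is named, without a version, in the processing notes of the submitters. As deposited, values are log2 multiples of the array median, since both columns have a median of 0, and their lowest is a signal of 0.01 times the median. Detection calls were not used here.

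The floor of 100 was converted to 1.67 times the median by the 2% trimmed means of the arrays, averaged. A 2-fold difference of floored signals was counted, with no test. Gene names are those of the platform annotation, in which 34958 of 45101 have 1 gene symbol, 932 several and 9211 are not listed, and names were updated through a gene table of the GRCm38.p6 assembly. A gene other than the 7 was represented by the probe set with the brightest mean signal. The named genes are every probe set of the 7, each other pathway gene with a 2-fold difference, the 3 others brightest in each list, and at most 3 markers a list, beside those given as under the floor. The members and lists were chosen with earlier results of these data known. Alternatives were floors of 50 and 200 and none, thresholds of 1.5-fold and 3-fold, 5 other scalings (loess had a span of 0.2), leaving out _x_at and _s_at probe sets, and the mean over the probe sets of a gene. The rules were checked on simulated data. Python 3.11.15, numpy 2.4.6, pandas 2.3.3, statsmodels 0.14.6 and matplotlib 3.10.9 were used.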

Additional observations from a re-analysis of the deposited data

How the results depend on the processing

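The log2 ratio of *Anpep*, the 1 of the 4 past 2-fold at the deposited scaling, stayed below 0 under each alternative. Of the 4 measured probe sets, the count at least 2-fold lower was 1 at the deposited scaling and 2, *Enpep* and *Anpep*, with the endothelial markers set equal, the same trimmed mean, quantile normalization or loess. It was 0 with a floor of 200, a threshold of 3-fold or the hybridization controls set equal, and 2 at 1.5-fold. The count at least 2-fold higher was 0, and 2, both of *Ace*, at 1.5-fold or with the hybridization controls set equal. Among the other pathway genes, the number at the floor could change with the setting. The 4 at least 2-fold higher became 19 with the hybridization controls set equal and 0 with loess. The count was 1 with quantile normalization, the same trimmed mean or 3-fold, and 7 at 1.5-fold. The 0 at least 2-fold lower became 1 with a floor of 50, no floor or loess, and 2 with quantile normalization, the same trimmed mean or 1.5-fold. The other alternatives left each count within 1.5 times. Which scaling is right was not tested. Signals under the floor, those of *Agt*, *Agtr1a*, *Agtr2* and *Bdkrb2*, limit what can be said of the substrate and receptors.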
